A study of Mus musculus with 4 samples.

Results

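The NF-kB, Toll-like receptor and interleukin-1 genes are a group of 10 members of one inflammatory signalling route: Nfkb1, Nfkbia, Rela, Tnfaip3, Tlr2, Tlr4, Cd14, Myd88, Il1b and Il1rn. They were chosen by name, through probe sets whose single annotated symbol is one of them, out of 8251 genes named on the array. The rule found 9 probe sets for 7 members. Nfkb1, Tlr2 and Tlr4 were not analysed here, so the receptor side of the route is represented by Cd14 and Myd88 alone. Signals came from Affymetrix MG_U74Av2 arrays of total liver RNA, with 2 arrays of PEPCK-TAg mice and 2 of wild-type (WT) mice. In the PEPCK-TAg mice a transgene makes SV40 large T and small t antigens from the promoter of Pck1, the phosphoenolpyruvate carboxykinase gene, which is active in hepatocytes. The WT mice are non-transgenic. All were male B6SJL hybrids aged 58 to 60 days, fed a 10% protein and 70% carbohydrate diet for 4 weeks after weaning. The series asks how chronic low-level exposure to these oncoproteins changes the liver's transcripts. The labels call the arrays duplicate measurements and do not tell whether each came from its own animal, so the p-values measure only the spread between arrays, which may be technical.

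Toll-like receptors recognise microbial products at the cell surface and in endosomes. CD14 hands lipopolysaccharide to TLR4, and MyD88 is the adaptor that most Toll-like receptors share with the interleukin-1 receptor. The signal activates the IkB kinase, which marks IkB-alpha, the product of Nfkbia, for destruction and so frees dimers of NF-kB such as those with RelA. Il1b encodes the cytokine interleukin-1 beta, and Il1rn the antagonist that occupies its receptor without signalling. Nfkbia and Tnfaip3 are targets of NF-kB that restrain it. In liver, Kupffer cells, the resident macrophages, are known to carry Cd14 and to make interleukin-1.

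Cd14 and Il1rn were higher in PEPCK-TAg liver, Il1b showed a difference of similar size that did not pass the threshold, and the probe sets of Rela, Nfkbia and Myd88 did not pass. Of the 9 probe sets, 7 (of 6 genes) were bright enough to be tested and 2 were not. A probe set was tested when its mean log2(signal + 13) reached the 40th percentile of all probe sets, near a signal of 48.1. A probe set passed when its Benjamini-Hochberg adjusted p in the limma fit over all 7453 tested probe sets was under 0.05. By that rule 2 of the 7 were higher and 0 lower, and 4 had an unadjusted p under 0.05 in limma. Over all tested probe sets, 6.40% were higher and 3.07% lower, and 26.6% had an unadjusted p under 0.05. The groups did not overlap in 6 of the 7, higher in PEPCK-TAg in 5 and lower in 1, where 56.5% of all tested probe sets had groups apart. The median log2 change of the 7 was 0.42, against 0.01 over all tested probe sets. These counts rest on few probe sets, and a probe set dim in WT could be tested only because it was brighter in PEPCK-TAg.

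**Figure D1:**
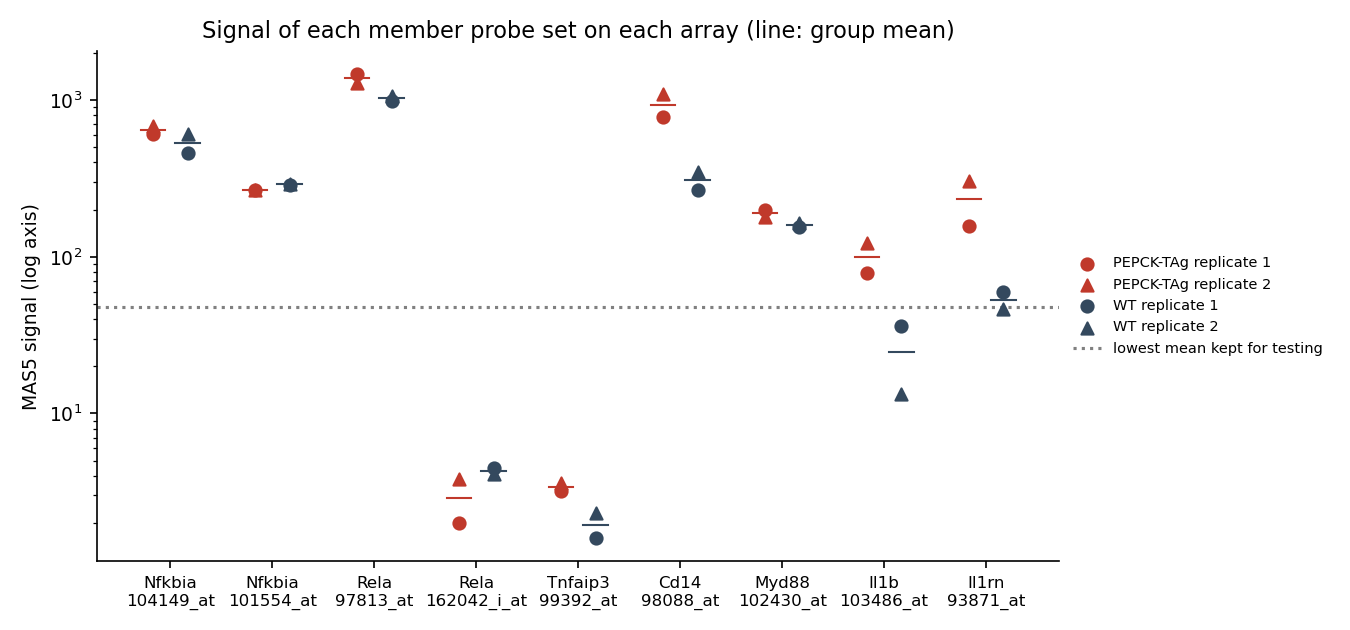
MAS5 signal (log axis) of the 9 member probe sets on each array, PEPCK-TAg in red and WT in dark blue, with replicate 1 as circles, replicate 2 as triangles and lines at the group means. Cd14, Il1b and Il1rn stand clearly apart between groups, while the second Rela probe set and Tnfaip3 lie below 5 on every array, far under the dotted line at 48.1.

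Cd14, the coreceptor for lipopolysaccharide, had signals of 776 and 1086 on the PEPCK-TAg arrays, against 266 and 349 on the WT arrays. Both PEPCK-TAg arrays lay above both WT arrays, by more than the gap within either group. The means were 931 ± 219 in PEPCK-TAg and 308 ± 58.8 in WT (SD, n = 2 each), a ratio of 3.02. The change was 1.55 ± 0.23 (log2, SE), with a 95% confidence interval of 1.01 to 2.09 (limma, Benjamini-Hochberg adjusted p = 0.0109). Of all tested probe sets, 2.78% had a larger rise. In bulk liver RNA, more cells of a type and more RNA per cell cannot be told apart.

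The adaptor gene Myd88 had signals of 199 and 179 on the PEPCK-TAg arrays, against 156 and 165 on the WT arrays. The groups did not overlap, as for most tested probe sets, but the gap was small. Its log2 change was 0.22, with an interval of -0.20 to 0.64 (limma, Benjamini-Hochberg adjusted p = 0.487), and 0.08 with arrays centred on their medians. That interval excludes a rise as large as the lower bound for Cd14.

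Among the NF-kB genes, Rela, which encodes the transactivating subunit, was the brightest member. Its main probe set read 1467 and 1287 in PEPCK-TAg, against 992.5 and 1062 in WT. Both PEPCK-TAg arrays were the higher ones, and the groups did not overlap. The log2 change of 0.42 ± 0.15 (SE) had an unadjusted 95% interval of 0.05 to 0.78 and did not pass after adjustment (limma, Benjamini-Hochberg adjusted p = 0.149). With arrays centred on their medians, which moved the median change of all tested probe sets to -0.14, the change of Rela was 0.27. The other Rela probe set read 2.0 and 3.8 in PEPCK-TAg and 4.5 and 4.1 in WT. It was too dim to be tested, and values this low give no direction for the gene.

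Nfkbia, the gene of the inhibitor IkB-alpha, was read by a pair of probe sets that pointed opposite ways. The brighter one read 603 and 681 in PEPCK-TAg, against 461 and 610 in WT, and the groups overlapped. The dimmer one read 267 and 266 in PEPCK-TAg, against 289 and 291.5 in WT, with both PEPCK-TAg arrays just below. Their log2 changes were 0.27 (interval -0.19 to 0.73) and -0.12 (interval -0.50 to 0.27), and neither passed (limma, Benjamini-Hochberg adjusted p = 0.433 and 0.707). With median centring they were 0.12 and -0.26. The inhibitor gene Tnfaip3, which encodes the ubiquitin-editing protein A20, read 3.2 and 3.6 in PEPCK-TAg and 1.6 and 2.3 in WT. It was not tested, and at this signal no difference is readable.

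The window around the start of Nfkbia is shown because it was the only member window with a match to a strict kB motif, the type of sequence that NF-kB dimers bind: GGGA, any 2 bases, then TTCC. Capitals mark the match, which lies on the opposite strand and begins 29 bases before the gene's start. It comes from RefSeq (GRCm38.p6), chr12:55492598-55492897, minus strand, with 250 bases before the start and 50 after it, read 5′ to 3′ along the gene.
Nfkbia: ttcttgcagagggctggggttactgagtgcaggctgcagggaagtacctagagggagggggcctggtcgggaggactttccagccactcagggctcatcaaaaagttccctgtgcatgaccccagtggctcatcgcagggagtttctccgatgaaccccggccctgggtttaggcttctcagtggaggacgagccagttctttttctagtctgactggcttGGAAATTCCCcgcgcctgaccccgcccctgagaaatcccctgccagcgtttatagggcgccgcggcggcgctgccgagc

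Both strands were searched for this motif in the RefSeq windows, where 1.47% of 32851 windows held a match. Windows were available for 7 of the 10 members (10 windows), and 1 of these 7 genes held the strict motif. Nfkb1, Tlr4 and Cd14 had no window there and were not searched. The match in Nfkbia is a description of letters, and its transcript did not pass in either probe set.

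The ligand gene Il1b had signals of 78.5 and 122 on the PEPCK-TAg arrays, against 35.9 and 13.3 on the WT arrays. Both PEPCK-TAg arrays were above both WT arrays, and the WT arrays themselves differed 2.70-fold. Means were 100.2 ± 30.7 in PEPCK-TAg and 24.6 ± 16.0 in WT (SD, n = 2 each), a ratio of 4.07. The log2 change was 1.63 ± 0.40 (SE), with an unadjusted 95% interval of 0.68 to 2.58, and it narrowly missed the threshold (limma, Benjamini-Hochberg adjusted p = 0.0530). Il1b ranked at percentile 40.7 by mean level, just past the limit for testing, and both its WT signals were under 48.1, so it was tested only through its level in PEPCK-TAg. It was called without WT replicate 1 (adjusted p = 0.0398, limma) and with a larger offset of 25 (adjusted p = 0.0473, limma), and over 12 alternatives its adjusted p ran between 0.0350 and 0.223.

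Il1rn, which encodes the receptor antagonist, had signals of 157 and 307 on the PEPCK-TAg arrays, against 59.4 and 46.3 on the WT arrays. The PEPCK-TAg arrays differed from each other 1.95-fold, yet the lower of them was well above both WT arrays. Means were 232 ± 105.5 in PEPCK-TAg and 52.9 ± 9.26 in WT (SD, n = 2 each), a ratio of 4.39. The log2 change of 1.83 ± 0.32 (SE; 95% interval 1.06 to 2.61) passed at an adjusted p of 0.0199 (limma). The call was lost without PEPCK-TAg replicate 2 (1.38, adjusted p = 0.0526), WT replicate 1 (1.98, adjusted p = 0.0509) or WT replicate 2 (1.69, adjusted p = 0.0614), and with no filter (adjusted p = 0.0584), all by limma. The intervals of Il1b and Il1rn overlap over most of their length, and the difference between ligand and antagonist was not tested.

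**Figure D2:**
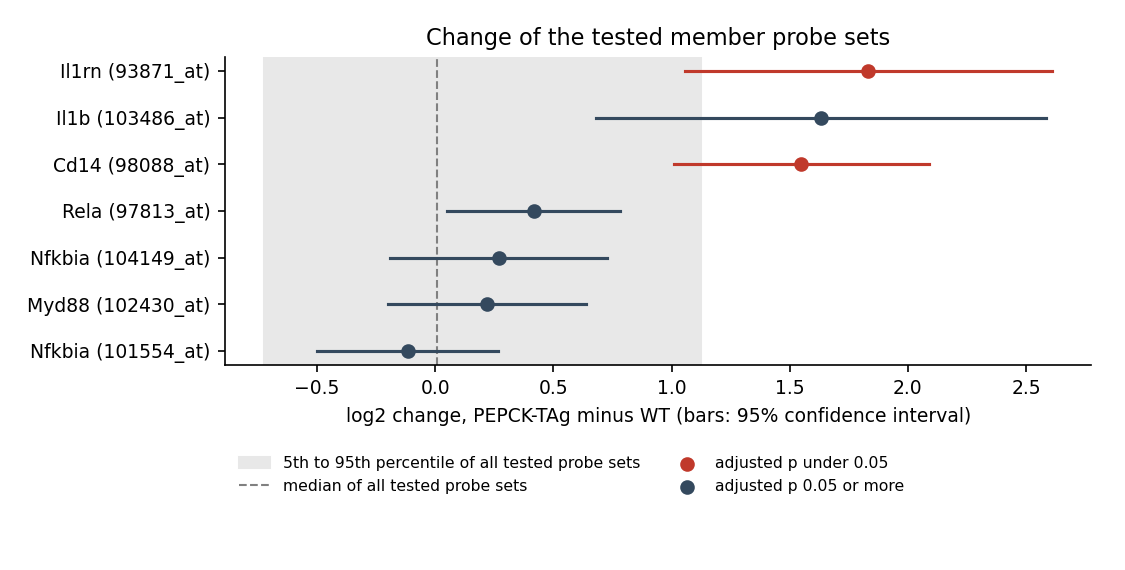
Log2 change (PEPCK-TAg minus WT) of the 7 tested member probe sets with 95% confidence intervals, over a grey band from the 5th to the 95th percentile of all tested probe sets (-0.72 to 1.12). Il1rn (1.83), Il1b (1.63) and Cd14 (1.55) lie to the right of the band, and the other 4 lie inside it.

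The windows around the starts of Il1rn are shown because it is the called member with sequence in the table. RefSeq gives 3 windows, of which the later pair overlap, so the first and the last are printed. Separate starts of this gene are known to give an intracellular and a secreted antagonist, and which of them the probe set reads was not analysed. Capitals mark matches on either strand to a looser motif, GGG and CC with any 5 bases between them, which takes in every strict match and was found in 50.8% of all windows. Both sequences are GRCm38.p6, plus strand, 5′ to 3′: chr2:24336610-24336909 for the first and chr2:24345121-24345420 for the last.
Il1rn first start: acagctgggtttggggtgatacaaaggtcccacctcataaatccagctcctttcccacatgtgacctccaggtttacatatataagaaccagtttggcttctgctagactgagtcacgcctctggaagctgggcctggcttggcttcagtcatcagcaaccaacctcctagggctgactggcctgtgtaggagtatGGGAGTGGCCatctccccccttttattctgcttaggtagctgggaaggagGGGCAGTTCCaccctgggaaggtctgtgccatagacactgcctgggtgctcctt
Il1rn last start: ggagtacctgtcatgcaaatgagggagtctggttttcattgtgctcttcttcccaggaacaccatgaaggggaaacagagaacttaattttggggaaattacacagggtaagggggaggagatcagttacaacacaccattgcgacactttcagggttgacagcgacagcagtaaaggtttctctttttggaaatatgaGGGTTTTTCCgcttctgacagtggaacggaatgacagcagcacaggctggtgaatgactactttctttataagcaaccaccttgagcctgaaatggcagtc

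The first window held 2 matches to the looser motif, beginning 54 and 4 bases before the start, and the last held 1, beginning 51 bases before it. None of the 3 Il1rn windows held the strict motif, and the Il1b window held neither motif. Of the 10 member windows, 8 held the looser motif, from 5 of 7 genes. Overlapping windows share matches, and nothing particular to the members is read from the count.

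Other genes of the route, listed by role, were read through the brightest probe set of each gene. Of 78 listed genes, 57 were on the array and 39 were tested. Among these 39, 9 rose and 0 fell, where 6.83% of all 5650 tested genes were higher and 3.01% lower. Their median log2 change was 0.28, against 0.01 over all tested genes. Of the 9, 7 were target genes. In 5 of the 39, both WT signals were under 48.1 (Tlr6, Lcn2, Ccl2, Cxcl10 and Gadd45b), so they were tested only through their level in PEPCK-TAg. As 3 of the 9 rises are among them, the counts and medians describe the tested genes and support nothing further.

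Of 26 listed target genes, 15 were tested. Of these 7 rose and 8 did not pass, where 6.83% of all tested genes were higher. The list was chosen with calls for several target genes known, so the count is no independent support. The median log2 change was 1.36, the value of Gadd45b, and like the count it draws on 4 genes (Lcn2, Ccl2, Cxcl10 and Gadd45b) that were tested only because PEPCK-TAg was brighter. Lcn2, whose product lipocalin 2 binds bacterial iron carriers, had signals of 688 and 880 in PEPCK-TAg, against 29.0 and 19.1 in WT (change 4.43). With WT signals this dim the size depends on the offset, and the change was 4.04 to 4.99 over its 13 alternatives. The other Lcn2 probe set read 132.5 and 120 in PEPCK-TAg and 140.5 and 105 in WT, so the probe sets disagreed. The neutrophil chemokine gene Cxcl1 read 897 and 993 in PEPCK-TAg, against 156 and 116.5 in WT (change 2.69), and its other probe set rose by 2.92. The adhesion molecule gene Vcam1 read 503.5 and 686 in PEPCK-TAg, against 72.8 and 84.8 in WT (change 2.71). All 3 Vcam1 probe sets rose (adjusted p of limma 0.00178, 0.00953 and 0.0368). The monocyte chemokine gene Ccl2 read 238 and 674 in PEPCK-TAg, against 5.5 and 38.7 in WT. The interferon-inducible chemokine gene Cxcl10 read 113 and 304 in PEPCK-TAg, against 8.8 and 6.2 in WT. Both rose (adjusted p of limma 0.0152 and 0.00933), but with such dim WT signals the size rests on the offset and on single arrays. The log2 change of Ccl2 was 3.75, and 3.01 to 4.64 over its 12 alternatives, and that of Cxcl10 was 3.29, and 2.62 to 4.47. The acute phase gene Saa3 (1.73) and the adhesion gene Icam1 (1.40) also rose (adjusted p of limma 0.00294 and 0.0107). Gadd45b, a stress response gene, had a log2 change of 1.36 and Irf1, an interferon regulatory factor gene, one of 0.38, and neither passed (limma, Benjamini-Hochberg adjusted p = 0.0596 and 0.335). The cytokine gene Tnf read 12.6 and 53.8 in PEPCK-TAg and 14.5 and 30.1 in WT, and Il6 read 2.6 and 3.7 in PEPCK-TAg and 2.6 and 15.8 in WT. Both were too dim to be tested, and their groups overlapped. Tnf and Il6 were named after their values were seen, and they do not stand for the other dim targets. Over all 26 listed target genes, tested or not, 13 had both PEPCK-TAg arrays above WT, 3 had both below and 10 overlapped. Groups were apart in 56.5% of all tested probe sets. A share for dim genes was not taken, and nothing is read from the count.

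None of the other NF-kB subunits, inhibitors and kinases that were tested passed. Of 14 listed genes, 11 were on the array and 9 were tested, with 0 calls (limma), although 4 were higher and 0 lower at an unadjusted p under 0.05. The list median was 0.38 in log2, and 16.6% of all tested genes were higher at that unadjusted limit. Nfkbiz, an atypical IkB protein gene induced by interleukin-1, read 196 and 199 in PEPCK-TAg, against 124 and 104.5 in WT. Relb, a subunit of the non-canonical route, read 184 and 148 in PEPCK-TAg, against 101 and 63.9 in WT. The groups were apart for both, with changes of 0.73 and 0.93 that did not pass (limma, Benjamini-Hochberg adjusted p = 0.0594 and 0.0740).

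Among Toll-like receptors and coreceptors, 5 of 11 listed genes were on the array and 3 were tested. Of these 3, 1 passed, where 6.83% of all tested genes were higher, and nothing is read from so small a count. Ly86, which encodes MD-1, the partner of the receptor-like protein CD180, rose, with 169 and 135 in PEPCK-TAg, against 45.5 and 63.3 in WT. Its change was 1.30 ± 0.25 (SE; limma, Benjamini-Hochberg adjusted p = 0.0240). It was not called without PEPCK-TAg replicate 1 (adjusted p = 0.107), without WT replicate 1 (adjusted p = 0.0666) or with no filter (adjusted p = 0.0680). The receptor gene Tlr6 read 67.0 and 61.1 in PEPCK-TAg, against 43.3 and 34.3 in WT, a change of 0.58 that did not pass (limma, Benjamini-Hochberg adjusted p = 0.252). Lbp, the lipopolysaccharide-binding serum protein made by hepatocytes, read 1587 and 1143 in PEPCK-TAg and 1068 and 1597 in WT, with overlapping groups.

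Of 12 other listed genes of the interleukin-1 family and its processing, 8 were on the array and 5 were tested, with a median log2 change of 0.28. Of these 5, 1 passed, where 6.83% of all tested genes were higher. At an unadjusted p under 0.05 (limma), 1 was higher and 1 lower, where 16.6% and 11.3% of all tested genes were. Nothing is read from counts of so few genes. Il18bp, which encodes a soluble protein that binds and neutralises interleukin-18, was the only one of the 5 to pass. It read 218.5 and 334 in PEPCK-TAg, against 56.6 and 111 in WT, a rise of 1.61 ± 0.33 (SE; limma, Benjamini-Hochberg adjusted p = 0.0305). The call was lost without PEPCK-TAg replicate 2 (adjusted p = 0.0756), without WT replicate 1 (adjusted p = 0.0786), with no filter (adjusted p = 0.0761) and without a mean-variance trend (adjusted p = 0.0507). The receptor gene Il1r1 read 173 and 150.1 in PEPCK-TAg, against 248 and 239 in WT. Both PEPCK-TAg arrays were the lower ones, and the change of -0.56 did not pass (limma, Benjamini-Hochberg adjusted p = 0.102). Il1a, the gene of interleukin-1 alpha, read 98.5 and 194 in PEPCK-TAg and 115 and 78.8 in WT, with overlapping groups and a change of 0.49 (limma, Benjamini-Hochberg adjusted p = 0.420).

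Of 15 listed adaptor and kinase genes, 7 were on the array and all 7 were tested, with 0 calls (limma) and 1 lower at an unadjusted p under 0.05, near the 11.3% of all tested genes that were lower at that limit. The list median was -0.27 in log2. Tollip, whose product dampens interleukin-1 receptor signalling, read 180.5 and 182 in PEPCK-TAg, against 249 and 278 in WT (change -0.51, limma, Benjamini-Hochberg adjusted p = 0.119). The other Tollip probe set had a log2 change of 0.15. Tirap, the gene of an adaptor that brings MyD88 to Toll-like receptors at the membrane, read 93.8 and 157 in PEPCK-TAg, against 168 and 187.5 in WT (change -0.50, limma, Benjamini-Hochberg adjusted p = 0.278).

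**Figure D3:**
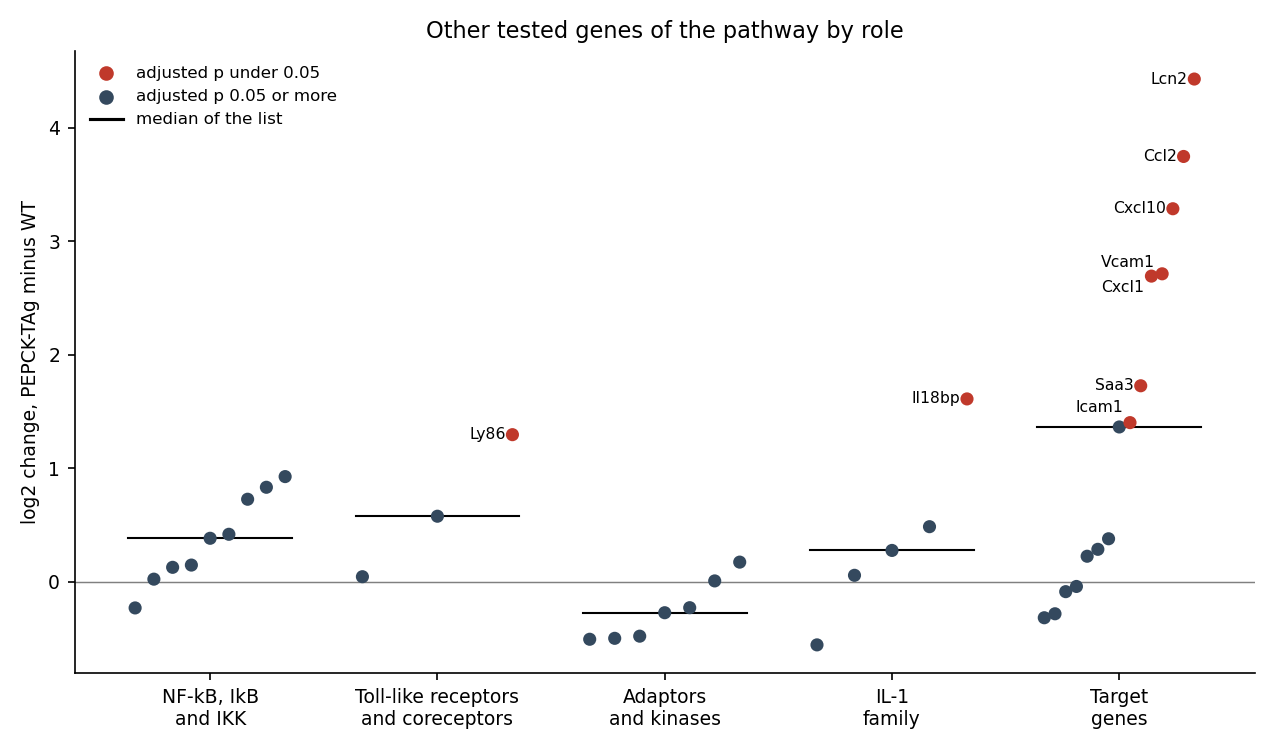
Log2 change (PEPCK-TAg minus WT) of the 39 other tested pathway genes, 1 point a gene, sorted within 5 roles, with black lines at the list medians and red points for an adjusted p under 0.05. Of the 9 red points, 7 are target genes, and Ly86 and Il18bp are the others.

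Some markers of macrophages were higher along with Cd14, and most did not pass. Of 14 listed macrophage and Kupffer cell markers, 12 were on the array and 11 were tested. Of these, 4 rose (Mpeg1, C1qb, Cd5l and Clec4f) and 7 did not pass, where 6.83% of all tested genes were higher. At an unadjusted p under 0.05 (limma), 7 of the 11 were higher and 0 lower, where 16.6% and 11.3% of all tested genes were. The median log2 change was 1.15, and Adgre1, Csf1r, Lyz2 and Marco had overlapping groups. A dimmer C1qb probe set had overlapping groups and a change of 0.21 (limma, Benjamini-Hochberg adjusted p = 0.617). A dimmer Csf1r probe set had both PEPCK-TAg arrays below WT, with a change of -0.93 (limma, Benjamini-Hochberg adjusted p = 0.131). The summed signal of the 12 markers was 10613 and 13953 on the PEPCK-TAg arrays, against 3255 and 6006 on the WT arrays, and 0 of the 12 were at 0 on any array. Clec4f, a lectin gene specific to Kupffer cells, read 1972 and 2953 in PEPCK-TAg, against 738 and 1209 in WT, and changed by 1.34, beside 1.55 for Cd14. Adgre1, the gene of the F4/80 antigen, read 115 and 261 in PEPCK-TAg and 91.4 and 186 in WT, with a change of 0.38 (limma, Benjamini-Hochberg adjusted p = 0.645). The part of macrophage content in the change of Cd14, Il1b or Il1rn was not tested.

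The same markers differed between the arrays of each group. Of the 11, 10 were higher on replicate 2 than on replicate 1 in PEPCK-TAg, and 10 in WT. The median gap of the 11 was 0.51 and 0.87 in log2, where the medians over all tested probe sets were -0.0045 and -0.022. The exception in both groups was Mpeg1 (-0.18 in PEPCK-TAg and -0.24 in WT). It had the largest change of the 11 (3.15), with 3144 and 2776 in PEPCK-TAg, against 349 and 294 in WT. Cd14 shared the order of those 10, with replicate 2 above replicate 1 by 0.48 in PEPCK-TAg and 0.38 in WT. The brighter Nfkbia probe set also did so, by 0.17 and 0.39. Il1rn and Il1b did so in PEPCK-TAg, by 0.91 and 0.56, but not in WT, where the same gap was -0.29 and -0.89. Those WT gaps rest on signals of 59.4 and 46.3 for Il1rn and 35.9 and 13.3 for Il1b, near or under 48.1. The share of all tested probe sets with replicate 2 higher in both groups was not taken. Whether the order sets Cd14 apart from Il1rn and Il1b was not tested. Among neutrophil markers, 11 of 11 were on the array and 2 were tested, with 0 calls (limma). At an unadjusted p under 0.05, 1 of the 2 was higher, where 16.6% of all tested genes were. The summed signal of the neutrophil markers was 620 and 617 in PEPCK-TAg, against 402 and 316 in WT. S100a8 read 105 and 89.9 in PEPCK-TAg, against 20.0 and 16.6 in WT, and S100a9 read 78.0 and 85.8 in PEPCK-TAg, against 12.6 and 26.3 in WT, both below the limit for testing. The list was not uniform: of the 11 neutrophil genes, 6 had both PEPCK-TAg arrays above WT, and 4 overlapped (Elane, Ly6g, Cxcr2 and Mmp8). In 1 (Mpo) both were below, with 5.4 and 11.7 in PEPCK-TAg and 36.4 and 21.4 in WT. A dimmer probe set of Mpo went the other way, with 10.8 and 9.7 in PEPCK-TAg and 4.7 and 2.7 in WT. Groups were apart in 56.5% of all tested probe sets. Most of the 11 neutrophil genes were untested, a share for such dim genes was not taken, and nothing is read from the count.

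**Figure D4:**
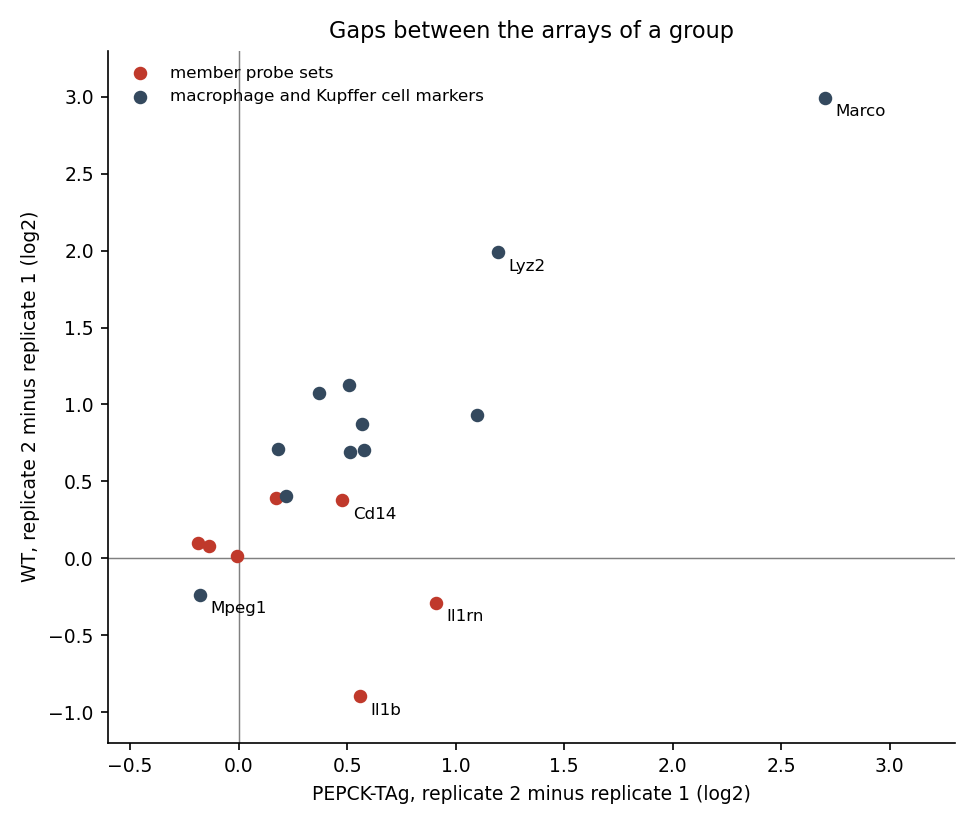
Difference in log2(signal + 13) between replicate 2 and replicate 1, in PEPCK-TAg (horizontal) and in WT (vertical), for the 7 tested member probe sets (red) and 11 macrophage and Kupffer cell markers (dark blue). Cd14 and the brighter Nfkbia probe set lie in the upper right with 10 of the 11 markers, and Il1rn and Il1b lie in the lower right.

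The arrays carried the profile of liver, with 7 of 7 hepatocyte markers tested and Alb, the albumin gene, at 13339 and 12446 in PEPCK-TAg, against 16723 and 14430 in WT. No hepatocyte marker passed, and 4 of the 7 were lower at an unadjusted p under 0.05 (limma), as were 11.3% of all tested genes. Of 7 endothelial markers, 6 were on the array and tested, with 0 calls, 2 lower at that limit and a median of -0.54. Of 4 B cell markers on the array, 3 were tested, with 0 calls, 1 higher and 1 lower at that limit, where 16.6% and 11.3% of all tested genes were. Over the whole array, 477 probe sets were higher and 229 lower, and 403 and 409 with arrays centred on their medians.

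Transcripts whose pattern over the 4 arrays was most like that of each called member were taken from 6680 named and tested probe sets. Likeness was the root mean square difference of log2 values after centring each probe set on its mean. For Cd14 the closest were Lgals1, which encodes galectin-1 (0.08), the fatty acid-binding protein gene Fabp7 (0.08) and Taf1d (0.10). Lgals1 read 316.5 and 449 in PEPCK-TAg, against 108 and 160 in WT. The Taf1d probe set carries a suffix for sequence shared with other transcripts. For Il1rn they were Ahnak (0.11), the leukocyte gene Lsp1 (0.12) and the class I histocompatibility gene H2-K1 (0.12). With 4 arrays in 2 groups, such likeness mostly restates the size of the group difference.

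**Figure D5:**
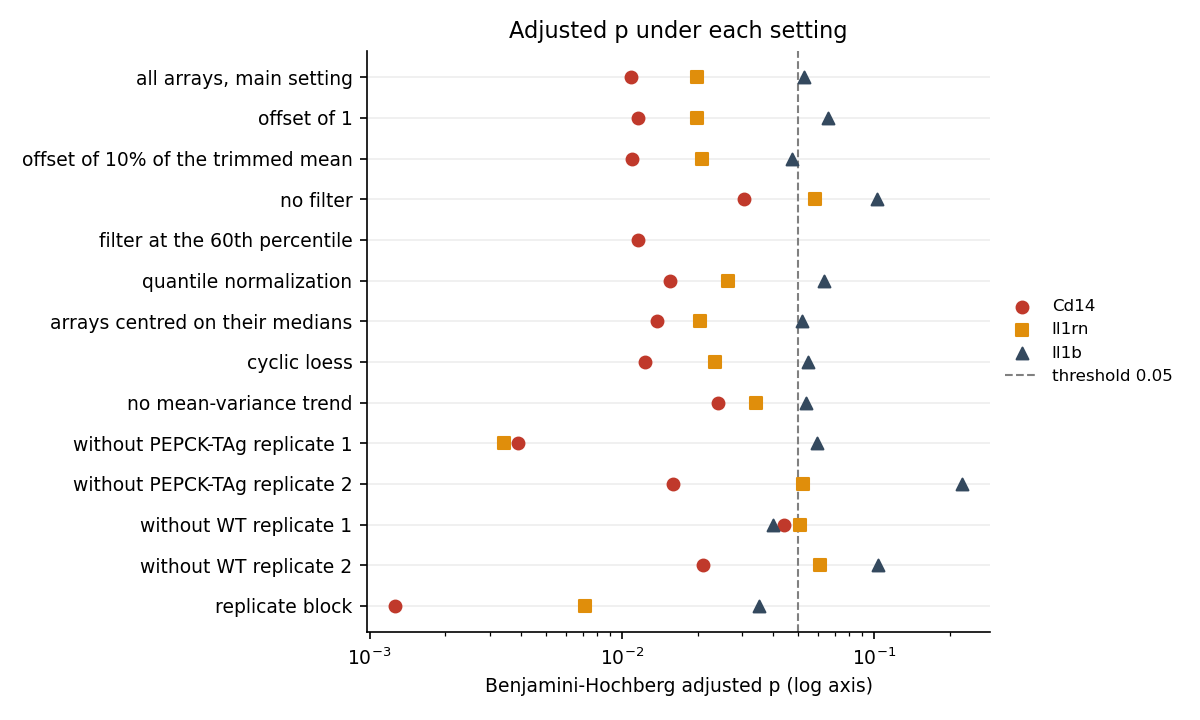
Benjamini-Hochberg adjusted p (log axis) of Cd14, Il1rn and Il1b in the limma fit with all arrays and under each alternative setting, with a dashed line at 0.05. Cd14 lies left of the line in all 14 settings, Il1rn and Il1b are missing with the filter at the 60th percentile, and Il1b is left of the line in 3.

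Cd14 kept its call under all 13 alternatives, with a log2 change between 1.31 and 1.79 and an adjusted p between 0.00127 and 0.0439 (limma). Il1rn was called in 8 of the 12 alternatives in which it was tested, and Il1b in 3 of 12. Rela, Nfkbia and Myd88 were called in none of 13.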

How the data were processed

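Liver RNA of 2 PEPCK-TAg and 2 WT arrays was compared, with groups and replicate numbers from the sample titles. Per the submitters' processing notes, the deposited intensities are linear MAS5 signals. Version, scaling target and detection calls were not given in the sources used here. Their trimmed mean (2% off each end) averaged 250.2, and no further normalization was applied. Per the file headers, the arrays shared chip lot, fluidics station and scan day, and each had its own module.

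Of 12488 probe sets, 66 controls were left out. Symbols came from the platform annotation, with 10833 probe sets of 1 symbol, 396 of several (unnamed) and 1193 without an entry. Of the first, 10817 matched the RefSeq table by Entrez identifier. Values were analysed as log2(signal + 13), an offset of 5% of the trimmed mean, which understates changes of dim genes. The 7453 probe sets at or above the 40th percentile of mean level were fitted with limma 3.58.1 in R 4.3.3 (lmFit, eBayes with a mean-variance trend, 2 residual and 4.61 prior degrees of freedom), two-sided, PEPCK-TAg minus WT, with Benjamini-Hochberg adjustment. Intervals are 95% from the moderated statistic. The smallest p an exact permutation test of 2 against 2 can give is 0.333, and no such test was made. Precision is limited by the number of arrays. A gene in a list was read by its brightest probe set.

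Members, lists, tests and alternatives were chosen with earlier results of these data known, including calls for several target genes, Cd14 and Il1rn, so their counts are no independent support. Named genes were all members, in each role list every gene past the threshold and the next 2 by p, 3 most alike transcripts per called member, and cell type markers. The fit was also run on simulated arrays with independent errors and a spread set by mean level alone. The real arrays need not follow that, so the run does not vouch for single calls. Alternatives other than the filters kept the same probe sets.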

Additional observations from a re-analysis of the deposited data

How the results depend on the processing

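Of the members, Cd14 kept its direction and call under every alternative run. With no filter or the filter at the 60th percentile, 1 member probe set was called in place of 2, with more and with fewer probe sets tested. Il1rn had an adjusted p of 0.0584 with no filter, and Il1rn and Il1b were not tested with the stricter one, which left 5 pathway genes called in place of 9. Leaving out each array in turn gave 1 to 2 member probe sets, 7 to 9 pathway genes, and 388 to 541 probe sets in all, with 294 to 401 higher and 94 to 147 lower. With no filter, 442 probe sets were called, 105 of them lower. Lower calls numbered 117 without a mean-variance trend and 409 with arrays centred on their medians (403 higher). The cause of these last shifts was not tested. Lbp, near 0 in the fit of all arrays (0.04), had a log2 change of -0.10 with arrays centred on their medians, and of -0.24 to 0.33 with 1 array left out. The untested Tnfaip3 probe set had a log2 change of -0.01 with median centring and of 0.59 with an offset of 1.

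The replicate numbers of the titles are shared between groups, but no label says that a number marks a shared litter, batch or day. Deviations from the group means correlated at 0.18 between same-numbered arrays over tested probe sets. With the replicate number as a block, leaving 1 residual degree of freedom, 1140 probe sets were called, 696 higher and 444 lower. In that fit Cd14 had an adjusted p of 0.00127, Il1rn of 0.00718 and Il1b of 0.0350. Pathway calls numbered 12, with Nfkbiz (0.0451), Relb (0.0257) and Gadd45b (0.0342) called as well. Signal limits what can be said of Tnfaip3 and the second Rela probe set, both under 5 on each array.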
